A study of Mus musculus with 34 samples.

Results

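The chromatin of elongating spermatids was compared between mice that lack the histone acetyltransferase Gcn5 in their germ cells and mice that carry it. The cells were assayed by ATAC-seq, in which the transposase Tn5 cuts and tags accessible DNA. Members were chosen by label alone: they are the calls in the lists of elongating spermatids (ES) from C57BL6 mice labelled GCN5-/-, here cKO, and from C57BL6 mice labelled GCN5+/+, here WT. Together these lists hold 1131844 of the 3519883 nucleosome calls of the series and 1035 of its 191455 subnucleosome peaks, and they come from 4 of its 34 libraries, 2 per genotype. In cKO mice homozygous floxed Gcn5 alleles were recombined by Stra8-Cre, a Cre driven by a gene that switches on as germ cells enter meiosis, so Sertoli and other somatic cells of the testis should keep the gene. A second list with intact Gcn5 came from adult SV129 males aged 8 to 12 weeks (SV129, 4 libraries from 2 biological replicates with 2 technical repeats each). The 3 lists of round spermatids (RS) from the same backgrounds served as the earlier stage. Each SV129 collection pooled testes of 11 mice. For the C57BL6 mice the labels state neither age nor number, nor whether the WT mice carried floxed alleles or Cre. Stage fractions were taken by sedimentation at a purity of at least 85%, and a reaction held 200000 spermatids.

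Spermatids rebuild their nuclei after meiosis. Histones become acetylated as the cell elongates, bromodomain proteins bind the acetylated tails, and most nucleosomes give way first to transition proteins and then to protamines. Gcn5, encoded by Kat2a, is the catalytic subunit of the SAGA and ATAC coactivator complexes and acetylates mainly histone H3, often at promoters. Nucleosome calls here are the authors' 150 bp intervals, taken by their name to lie over nucleosome-sized fragments. Subnucleosome peaks are likewise taken as intervals of shorter fragments, which mark DNA free of a nucleosome.

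The authors deposited 1 nucleosome list and 1 subnucleosome list per group, so no difference below has a replicate error and none was tested. The difference between SV129 and WT, both intact, is given as a yardstick, and it mixes strain, depth and number of libraries. Read depth is unknown, and a longer list may come from a deeper library. Shares carry Wilson 95% intervals, which count every call as independent although calls overlap, and so reflect counting error only. The cKO ES list held 540655 nucleosome calls, WT 591189 and SV129 480320, of which 0.23%, 0.265% and 0.385% lay on scaffolds and were set aside. On chromosomes 1 to 19, X and Y the cKO list had 0.915 times the length of the WT list, and SV129 0.811 times. Calls overlapped heavily, with 2.13, 2.09 and 1.76 calls per merged region, and covered 45.1, 49.9 and 46.8 Mb. Kat2a itself held no call in cKO, 3 in WT and 5 in SV129 within its body. Counts this small do not check the deletion, and the floxed exons are not named in the labels.

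Open sites were few in elongating spermatids of every background. Those seen only in cKO included the promoters of well-known genes, and those seen only in an intact list lay at some named genes too. The cKO list held 473 subnucleosome peaks, WT 562 and SV129 787, against 4075, 56480 and 29243 in round spermatids. Of the cKO peaks 394 overlapped a WT ES peak (83.3%, 79.7% to 86.4%) and 370 an SV129 ES peak (78.2%, 74.3% to 81.7%). All 3 lists shared 342 of the cKO peaks and 51 were in cKO only. The peaks carry a deposited score whose meaning is not stated. Among the 237 cKO peaks at or above the median score of their list, 96.2% overlapped a WT ES peak of any score. Most cKO peaks without a WT peak thus lay below that median. Of the WT peaks 92 were in WT only, and of the SV129 peaks 342 were in SV129 only. Within 500 bp of an annotated end of a protein-coding gene, 13 genes had an ES peak in cKO alone, 4 in WT alone and 11 in SV129 alone. Of those 13 genes 9 had the peak at the start. Named genes were also among those with a peak in WT alone (B3galt6 and Sdf4) and in SV129 alone (Abo, Rnf41 and St6galnac1). By contrast, the 4 genes with a peak in all 3 lists, 4931408C20Rik, Gm9758, Gm32584 and LOC100504180, are predicted or uncharacterized genes.

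The promoters that carried a cKO-only peak are shown where RefSeq places a start within 30 bases of the gene's annotated end and the peak reaches the bases before it, which left 3 genes. Each line gives the 250 bases before the start, 5′ to 3′ on the coding strand, from RefSeq on GRCm38.p6. Capitals mark the bases under the cKO ES peak. Cycs encodes cytochrome c, the electron carrier of the respiratory chain, and its window is chr6:50566570-50566819 on the minus strand. Tpt1 encodes an abundant protein of cell growth and its window is chr14:75845006-75845255 on the plus strand. Ankrd50 encodes an ankyrin repeat protein of endosomal recycling, with the window chr3:38484851-38485100 on the minus strand.
Cycs: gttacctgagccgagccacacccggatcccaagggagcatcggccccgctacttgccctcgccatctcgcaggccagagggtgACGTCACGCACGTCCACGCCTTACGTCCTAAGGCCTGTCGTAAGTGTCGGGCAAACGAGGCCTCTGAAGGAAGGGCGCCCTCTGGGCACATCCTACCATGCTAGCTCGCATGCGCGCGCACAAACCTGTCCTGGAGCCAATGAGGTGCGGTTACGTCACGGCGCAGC
Tpt1: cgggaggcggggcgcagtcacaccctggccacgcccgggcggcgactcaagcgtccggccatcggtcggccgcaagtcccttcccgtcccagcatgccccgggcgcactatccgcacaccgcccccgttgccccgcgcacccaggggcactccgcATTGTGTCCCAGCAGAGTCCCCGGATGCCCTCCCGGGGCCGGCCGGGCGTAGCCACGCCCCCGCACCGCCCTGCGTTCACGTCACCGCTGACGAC
Ankrd50: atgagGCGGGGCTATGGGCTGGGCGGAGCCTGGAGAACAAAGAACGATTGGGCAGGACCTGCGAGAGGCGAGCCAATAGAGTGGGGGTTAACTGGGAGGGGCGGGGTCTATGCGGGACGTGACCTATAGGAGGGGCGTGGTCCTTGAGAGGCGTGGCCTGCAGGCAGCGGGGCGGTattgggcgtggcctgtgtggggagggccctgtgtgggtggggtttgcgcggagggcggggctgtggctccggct

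The 3 windows are rich in CpG, with 23 CpG dinucleotides in Cycs, 33 in Tpt1 and 17 in Ankrd50. The median of all 32851 RefSeq windows of this length was 6, and 23.5% of them held 17 or more. Over the 8 starts with a cKO-only peak and a CpG count in the 300 base RefSeq window around the start, the median was 27.5, against 24 at starts with a cKO RS peak and 13 at all starts. The cKO peak covered 167, 95 and 171 bases of these windows. In Cycs the palindrome TGACGTCA, the cAMP response element to which the spermatid regulator CREM binds, occurs once, at the edge of the peak and only partly in capitals. It was found in 1.55% of all windows and in neither of the other two. The letters CCAAT, searched on both strands, occur 3 times in Ankrd50, once in Cycs and not in Tpt1, and in 33.8% of all windows. A match to such letters describes the sequence and is not a measured binding site.

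RS peaks were common at the ends of these 13 genes, and they are common at gene ends in general: of all 21887 protein-coding genes 39.1% had an RS peak at either end in both intact lists, and 11.2% in all 3. The cKO RS list, the shortest, supplies few. Around the start of Cycs an ES peak covered 174 bp in cKO and none in WT or SV129, while RS peaks covered 213 bp in cKO, 479 bp in WT and 583 bp in SV129. Zbtb20, a zinc finger repressor, had 144 bp in cKO ES and 418, 806 and 515 bp in the RS lists of cKO, WT and SV129. For Srgap2, a regulator of Rac signalling, the ES peak in cKO spanned 87 bp and the RS peaks 144, 881 and 702 bp. Kif1b, a kinesin motor, had 84 bp and then 164, 638 and 438 bp. Tpt1, Ankrd50, Mtmr12, Rab30 and Ebag9 also had RS peaks in all 3 backgrounds, which made 9 of the 13 genes with an RS peak at the same end in each. Mbip, which encodes a subunit of the ATAC complex, had 85 bp at its start in cKO ES, 230 bp in WT RS and 217 bp in SV129 RS, and no RS peak in cKO. The remaining 3, Asmt, Gm51591 and Sfi1, had no RS peak at that end. For comparison, 3 of the 4 genes with an ES peak in WT alone had RS peaks in both intact lists, among them the neighbours B3galt6 and Sdf4 with a peak of 89 bp between them, and 1 of the 11 in SV129 alone did.

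**Figure D1:**
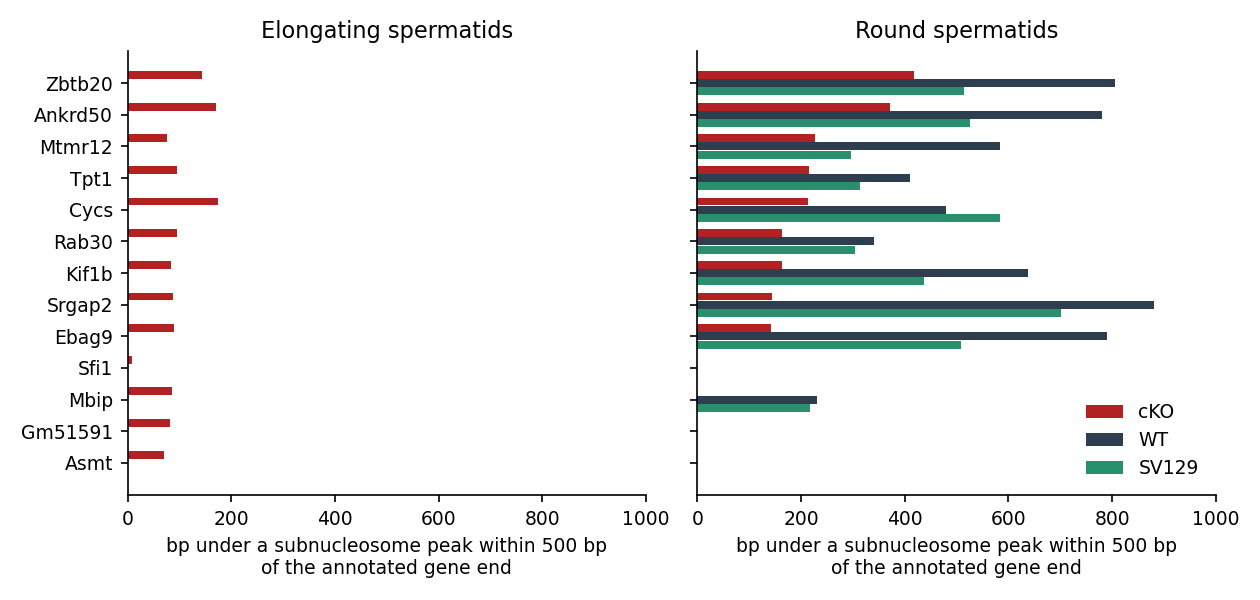
Base pairs under a subnucleosome peak within 500 bp of the annotated end, for the 13 genes with an ES peak there in cKO alone, in elongating (left) and round spermatids (right); bars are single lists, cKO in red, WT in dark blue and SV129 in green. The genes were chosen for the left panel, and the right panel shows 9 of them open in all 3 backgrounds in round spermatids and Mbip in WT and SV129 only.

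Set against all open promoters of round spermatids, such overlap was rare. Of the 1791 cKO RS peaks at gene starts 11 overlapped a cKO ES peak (0.614%, 0.343% to 1.1%), 3 a WT ES peak and 4 an SV129 ES peak. Of the 8590 WT RS peaks at starts 12 overlapped a cKO ES peak, 6 a WT ES peak and 5 an SV129 ES peak. Of the 7222 SV129 RS peaks at starts the numbers were 12, 6 and 8. Away from starts, cKO, WT and SV129 ES peaks overlapped 228, 215 and 214 of the other cKO RS peaks, 335, 331 and 365 of the other WT RS peaks, and 325, 332 and 518 of the other SV129 RS peaks. The cKO ES list thus overlapped more RS peaks at starts than WT or SV129 with each RS list, although it had the fewest ES peaks. The RS lists do not repeat this result independently, since the same few ES peaks were counted against each. In cKO they lay at 13 starts, 9 of them among the cKO-only genes chosen above. The overlaps at starts are counts of 3 to 12 peaks. The intervals of the shares from WT RS peaks overlap, at 0.14% (0.0799% to 0.244%) in cKO and 0.0698% (0.032% to 0.152%) in WT.

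Peaks that all ES lists share had another character. The widest on numbered chromosomes was 2798 bp at chr1:24612807-24615604 over the pseudogene Gm10925, of which WT covered 2648 bp and SV129 2774 bp. The next were 1149 bp at chr1:24611581-24612729 over the pseudogene Gm10222, 1061 bp at chr2:98666253-98667313 35285 bp from the nearest gene, 997 bp at chr2:22589196-22590192 inside Myo3a, which encodes a myosin of sensory hair cells, and 950 bp at chr9:124257007-124257956. Of the first 4 every RS list covered the whole length. The densest 100 kb in all 3 lists was chr9:3000001-3100000, with 28 peaks in cKO, 33 in WT and 33 in SV129. Of all ES peaks 10.6% in cKO, 11.7% in WT and 8.01% in SV129 lay on scaffolds, against at most 0.393% in the RS lists. These peaks were kept in the overlaps. The part of repeated sequence in the shared peaks was not tested. Among peaks in cKO only, the widest was 541 bp at chr1:128012843-128013383 in Zranb3, a DNA repair helicase gene, where RS peaks covered 477 bp in cKO and the whole 541 bp in WT and SV129. Next came 332 bp in Cldn14, a tight junction gene, 211 bp in the lncRNA gene Gm15486, and the peaks at Cycs and Ankrd50. Peaks shared by all lists had an RS peak of the own background in 56.7% of cases in cKO, against 81.8% in WT and 83.9% in SV129. The shorter cKO RS list enters the first value. Of the 51 cKO-only peaks 13 overlapped a nucleosome call of the same list (25.5%), against 197 of the 342 shared peaks (57.6%). The intact lists went the same way, with 37% against 72.5% in WT and 50% against 66% in SV129. Peaks in cKO only were also narrower than the shared ones, with a median of 89 bp against 138 bp.

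Regional density was compared next. Calls were counted in bins and scaled to the mean length of the 3 ES lists, 535835 calls. In 1 Mb bins the cKO list lay between the intact lists more often than either of them lay between the other and cKO: it was the middle value in 60.4% of 2517 bins with at least 20 scaled calls on average, WT in 21.1% and SV129 in 18.5%. Only 7 bins had cKO above both intact lists by 1.5-fold and 14 below both, against 158 and 66 for WT and 54 and 392 for SV129. Compared with WT alone, cKO was 1.5-fold higher in 3.13% of 2557 bins and lower in 9.27%. When the lists were scaled to their median autosomal bin instead, these shares became 6.83% and 4.92%, so that 58.1% of the differing bins were higher in cKO in place of 25.2%. The intact lists differed from each other in more bins, with SV129 higher than WT in 10.1% and lower in 29%. The cKO list was higher than SV129 in 15.7% of bins and lower in 3.12%. In 100 kb bins, where counts are lower, cKO was higher than WT in 22.5% and lower in 16.2%, SV129 higher than WT in 29.4% and lower in 16.8%, and cKO higher than SV129 in 14.4% and lower in 20.9%. The SD of the log2 ratio over 2409 autosomal 1 Mb bins was 0.35 for cKO over WT, 0.46 for cKO over SV129 and 0.61 for SV129 over WT.

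**Figure D2:**
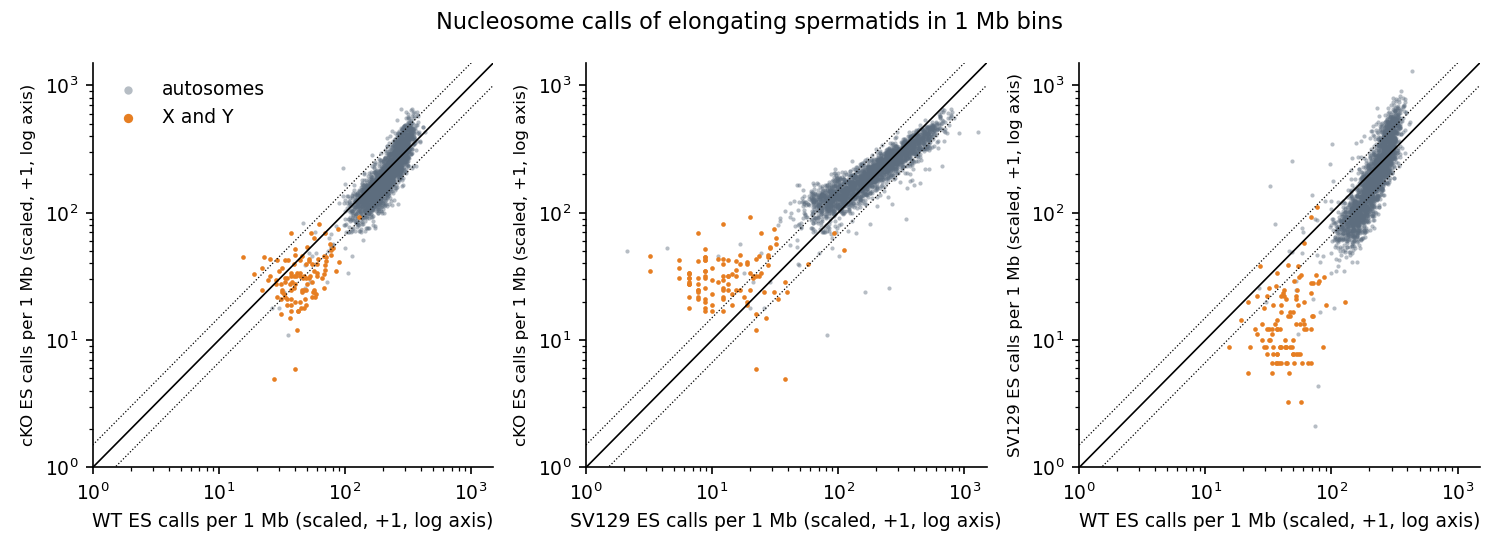
Scaled nucleosome calls of elongating spermatids in 1 Mb bins, plus 1, on log axes, for each pair of lists; each point is a bin, grey on autosomes and orange on X and Y, with lines at equality (solid) and 1.5-fold (dotted). By the SD of the log2 ratio on autosomes, the cKO list is closer to each intact list than they are to each other. The SD is 0.35 against WT, 0.46 against SV129 and 0.61 between SV129 and WT.

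The Pearson correlation over 2413 autosomal 1 Mb bins was 0.85 between cKO and WT, 0.92 between cKO and SV129 and 0.82 between WT and SV129. By rank (Spearman) the values were 0.89, 0.92 and 0.89, so WT was as close to SV129 as to cKO. Over 24000 autosomal 100 kb bins the Pearson values were 0.55, 0.74 and 0.57 and the rank values 0.54, 0.69 and 0.59. Neighbouring bins share their gene content and the sequence that can be aligned, so these values describe the lists and are not a test. The lists also differed in contrast. The bin at the 90th percentile held 3.18 times the calls of that at the 10th in cKO (363 against 114), 2.17 times in WT (332 against 153) and 5.45 times in SV129 (382 against 70), and the coefficient of variation was 0.459, 0.29 and 0.645.

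Gene-rich sequence held more ES calls in every background. From the decile of autosomal 1 Mb bins without a protein-coding gene to the decile with 21 to 67 genes, density went from 0.598 to 1.33 times the list's mean in cKO, from 0.709 to 1.17 in WT and from 0.432 to 1.64 in SV129. The richest decile thus held 2.23, 1.65 and 3.79 times the calls of the poorest. In round spermatids the backgrounds parted: the ratio was 1.87 in cKO and 1.7 in SV129, but 0.673 in WT, whose calls were densest where genes are few. Across bins the rank correlation of calls with gene number was 0.46 in cKO RS, 0.28 in SV129 RS and -0.30 in WT RS, against 0.55, 0.64 and 0.53 in the ES lists. Without calls at gene ends the RS values were 0.35, -0.00 and -0.50 and the ES values 0.51, 0.61 and 0.47, so that the relation in SV129 RS rested on those calls.

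**Figure D3:**
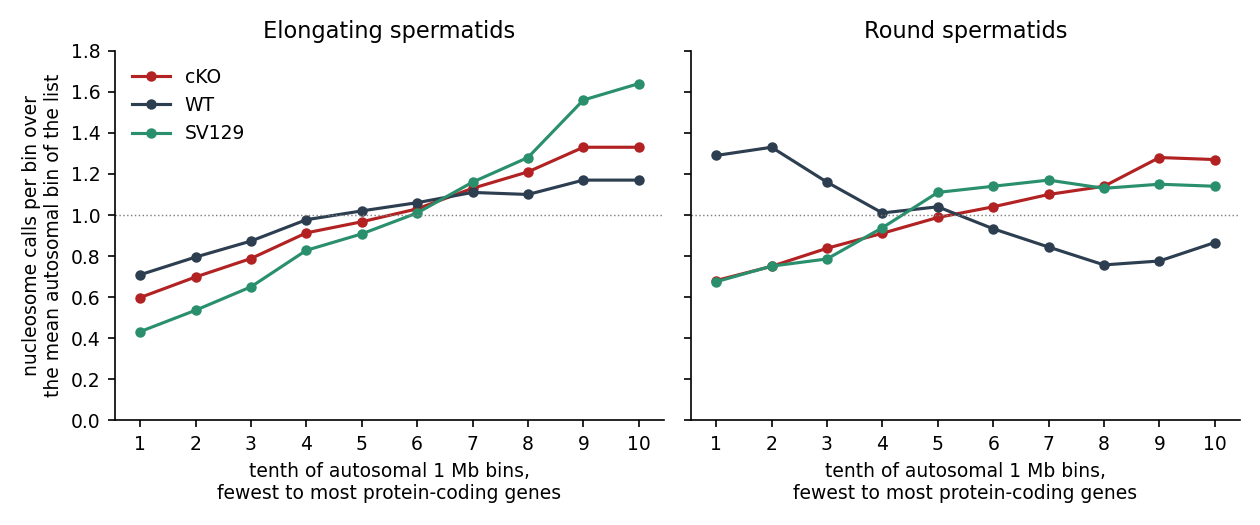
Nucleosome calls per autosomal 1 Mb bin, relative to the mean bin of the same list, in deciles of bins ordered by the number of protein-coding genes; elongating spermatids on the left, round spermatids on the right, 1 line per list. All ES lines go up from left to right, cKO between WT and SV129, while the WT RS line goes down from 1.29 to 0.866.

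In 1 Mb bins the ES and RS lists of cKO resembled each other more than those of the intact backgrounds did. Over autosomal 1 Mb bins ES and RS calls correlated at 0.83 in cKO, 0.42 in SV129 and -0.21 in WT. The intact RS lists correlated at 0.38 with each other. The cKO RS list correlated at 0.76 with WT ES and at 0.80 with SV129 ES, but at only 0.04 with WT RS and 0.57 with SV129 RS. Conversely, cKO ES correlated at -0.23 with WT RS and at 0.40 with SV129 RS. At this scale cKO RS was closer to every ES list than to either intact RS list, and in 100 kb bins it was not. There cKO RS correlated at 0.41 with WT ES and 0.54 with SV129 ES, against 0.43 with SV129 RS and 0.16 with WT RS. The ES list and its own RS list correlated at 0.53 (cKO), 0.41 (SV129) and -0.03 (WT) in 100 kb bins. In that list 66.9% of calls carried the most common score, against 17.4% in WT RS and 29% in SV129 RS, and the part of this in the result was not tested beyond leaving those calls out, which in 1 Mb bins gave 0.77, 0.46 and -0.19 for cKO, SV129 and WT.

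Of the 2517 bins 102 were on X (4.05%). Of the 7 bins with cKO above both intact lists 6 were on X, and of the 14 below both 6 were on X, 1 on Y and 7 on autosomes. The intact lists also stood apart there, WT above both others in 47 bins on X of 158, and SV129 below both in 80 of 392. X held few calls per Mb in each list, 0.118 times the autosomal density in cKO, against 0.17 in WT and 0.0518 in SV129. The cause of the low density on X was not tested. The highest ratio was at chrX:115000001-116000000, a megabase without a protein-coding gene, with 44 calls in cKO, 16 in WT and 7 in SV129. At chrX:142000001-143000000, which holds Tmem164, Acsl4 and Ammecr1, the counts were 69, 40 and 6. Another 3 bins, at chrX:163000001-164000000, chrX:61000001-62000000 and chrX:119000001-120000000, had 32 to 44 calls in cKO, 20 to 27 in WT and 7 to 12 in SV129. The lowest ratios were at chrX:3000001-4000000 (4, 29 and 33 calls) and chrX:32000001-33000000 (5, 43 and 19), both filled with Btbd35f genes, a multicopy family, so that the authors' alignment may have split reads between copies. The third, chr7:8000001-9000000 (10, 38 and 72), holds vomeronasal receptors of the Vmn2r family, which share sequence likewise. In chr3:4000001-5000000, which has no protein-coding gene, the counts were 45, 123 and 89, and in chrX:10000001-11000000, which holds Tspan7, Otc and Rpgr, 11, 45 and 19.

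Gene ends were then set against gene bodies. Of 21887 protein-coding genes 17492 had a strand in the RefSeq promoter table, which allowed starts and 3′ ends to be told apart. The 500 bp on either side of a start held 1.91% of cKO ES calls (1.88% to 1.95%), 1.47% of WT calls (1.44% to 1.5%) and 1.88% of SV129 calls (1.84% to 1.92%). These shares were 3.11, 2.39 and 3.06 times the share of sequence. The interval of the cKO share thus lay above that of WT and overlapped that of SV129. Calls overlap, so these intervals are too narrow, and they do not test a difference between genotypes. The same windows at 3′ ends held 1.33, 1.19 and 1.61 times their share. Remaining gene bodies held 45.6%, 43.3% and 48.6% of calls, and sequence outside genes 51%, 54% and 47.9%. Per Mb, starts had 2.52 times the calls of bodies in cKO, 2.04 times in WT and 2.32 times in SV129, while 3′ ends had 1.08, 1.02 and 1.23 times. In round spermatids starts had 7.42 times the density of bodies in cKO, 26.9 in WT and 25 in SV129. From RS to ES the ratio of starts to bodies thus went down in each background, and the cKO list, lowest by this ratio at RS, was highest at ES.

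The shape around starts was alike in the 3 ES lists. Call centres were densest 125 bp downstream of the start in all of them, at 5.54 times the average of the list in cKO, 4.2 in WT and 5.17 in SV129, which is where the first nucleosome of a transcribed gene usually sits. The 150 bp upstream had 3.04, 2.15 and 2.86 times the average. In round spermatids the density 125 bp downstream was 25.1 times the average in cKO, against 52.1 in WT and 59.6 in SV129. The 150 bp upstream had 7.34 times the average in cKO RS, against 41.2 and 37.1 in the intact RS lists, lower relative to the downstream peak in cKO than in WT or SV129. At 3′ ends ES calls were fewest 75 to 125 bp past the end, at 0.75 times the average in cKO, 0.829 in WT and 0.852 in SV129. Inside genes of at least 20 kb, density was highest in the last decile of the body, at 1.39 times the average in cKO, 1.25 in WT and 1.52 in SV129, against 1.15, 1.15 and 1.17 in the first decile. Short genes held more calls per base. Genes under 10 kb had 2.11 times the average density in cKO (WT 1.65, SV129 2.61), and genes of 200 kb or more had 1.03, 1.06 and 0.97 times.

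**Figure D4:**
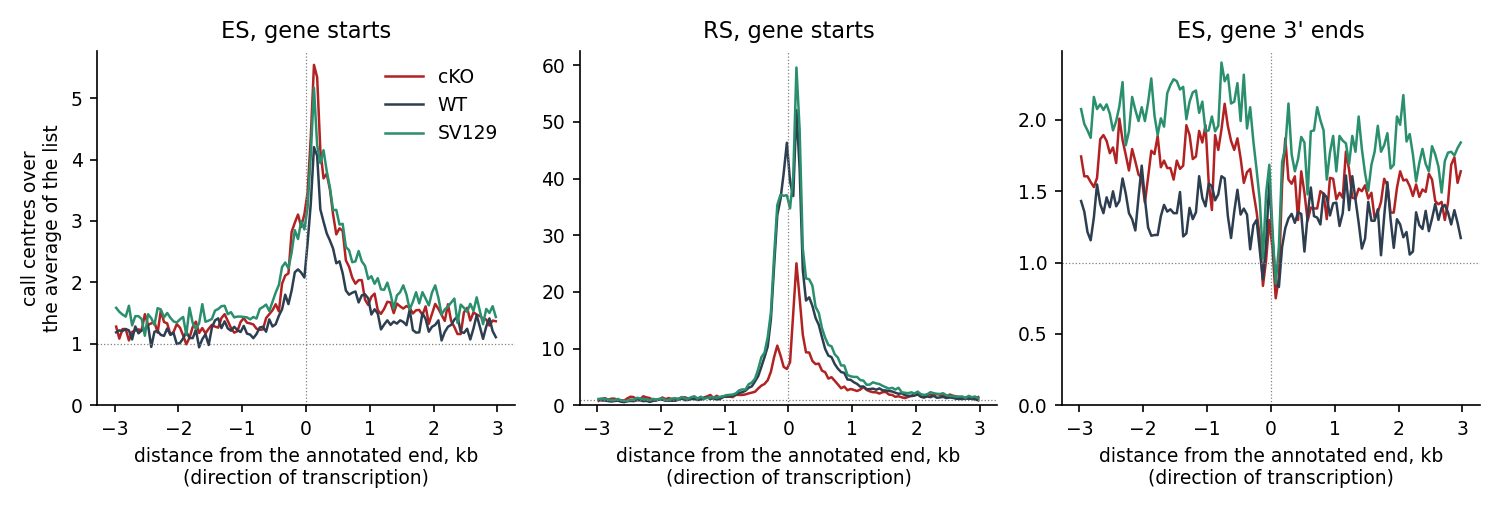
Density of nucleosome call centres in 50 bp bins within 3 kb of annotated gene starts in elongating (left) and round spermatids (middle), and of 3′ ends in elongating spermatids (right), relative to the average of the list; 17492 genes, 1 line per list, and the vertical scales differ. All lists peak 125 bp downstream of starts, the cKO list at 5.54 in elongating and 25.1 in round spermatids.

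Starts with a call in round spermatids were more often occupied in elongating spermatids. Of all 17492 starts 27.8% had an ES call within 500 bp in cKO, 25.3% in WT and 28.7% in SV129. Among the 6727 starts with an RS call in both intact lists the shares were 42.1% (40.9% to 43.3%), 37.7% (36.6% to 38.9%) and 40.9% (39.8% to 42.1%). Among the 8340 starts with an RS call in neither they were 15.7%, 15% and 17.8%. Of the first group, 3156 had no RS call in cKO, and these were occupied in cKO ES in 36.6% of cases (34.9% to 38.3%), in WT ES in 32.6% and in SV129 ES in 35.2%. The 3571 starts with an RS call in cKO as well were occupied in 46.9%, 42.3% and 46% of cases. Absence from the cKO RS list therefore went with a lower ES share in every list, the intact ones included. Among the absent starts the cKO share was no lower than the intact shares. The ES share followed CpG content. In the third of starts with the fewest CpG in the 300 base RefSeq window it was 13.9%, 13.8% and 15.9%, and in the third with the most it was 43.3% (41.9% to 44.7%), 38.5% (37.1% to 39.8%) and 42.4% (41.1% to 43.8%). At CpG-poor starts cKO and WT were thus near each other (13% to 14.9% and 12.9% to 14.8%) and SV129 was slightly higher (14.9% to 16.9%). At CpG-rich ones cKO and SV129 were both above WT. Starts of a single list are no replicates, so these intervals do not test a difference between genotypes. At CpG-rich starts the RS shares were 50% in cKO, 79.8% in WT and 82.6% in SV129. Starts occupied in both cKO and WT numbered 1709. They made up 35.2% of the starts occupied in cKO, where WT occupied 25.3% of all starts, and 38.7% of those occupied in WT, where cKO occupied 27.8% of all. All 3 lists shared 764 starts (4.37%).

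Placement on the positions used in round spermatids came next. A cKO ES call overlapped a cKO RS call in 3.76% of cases (3.71% to 3.81%), which is 3.39 times the 1.11% of sequence within reach of that list. In WT the share on its own RS list was 4.18% (4.12% to 4.23%), 2.89 times, and in SV129 7.15% (7.08% to 7.23%), 5.18 times. Without calls at the most common score of each list these folds became 6.87, 3.62 and 7.06, which brought cKO close to SV129. The cKO calls were also set on the intact RS lists, where they overlapped WT RS calls 3.46 times and SV129 RS calls 4.42 times over reach. The WT ES calls gave 2.6, 2.89 and 3.21 times over reach on the cKO, WT and SV129 RS lists. The cKO ES list thus lay above the WT ES list on each RS list, that of WT included, and SV129 ES lay above both on the cKO and SV129 lists. With regional density removed by comparing the first 100 bp with sequence 1 to 2 kb away, cKO ES calls were 2.62 times denser at cKO RS calls, 4.06 at WT RS calls and 4.04 at SV129 RS calls. The same values were 2.3, 3.25 and 3.1 for WT ES and 2.51, 3.91 and 3.92 for SV129 ES. The RS list of cKO gave the lowest value for every ES list, whatever its genotype.

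The distance profile had a second shoulder about a nucleosome repeat away. Around WT RS calls the density of cKO ES calls was 2.61 times the flanks at 125 bp and 2.82 at 175 bp, and around cKO RS calls 1.58 at 125 bp and 1.81 at 225 bp. WT ES calls around WT RS calls went from 2.10 to 2.30 between 125 and 225 bp, and SV129 ES calls around SV129 RS calls from 2.07 to 2.62. At gene ends overlap was more frequent. There 18.3% of cKO ES calls (17.7% to 18.9%) lay on a cKO RS call, 34.6% on a WT RS call and 37.2% on an SV129 RS call, against 3.26%, 3.97% and 5.03% elsewhere. The WT and SV129 ES calls at ends lay on their own RS calls in 32.1% and 32.5% of cases. Between ES lists, 7.39% of cKO calls overlapped a WT call, 2.2 times over reach, and 9.09% an SV129 call, 2.86 times, while WT and SV129 calls overlapped 2.31 times over reach (WT on SV129).

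**Figure D5:**
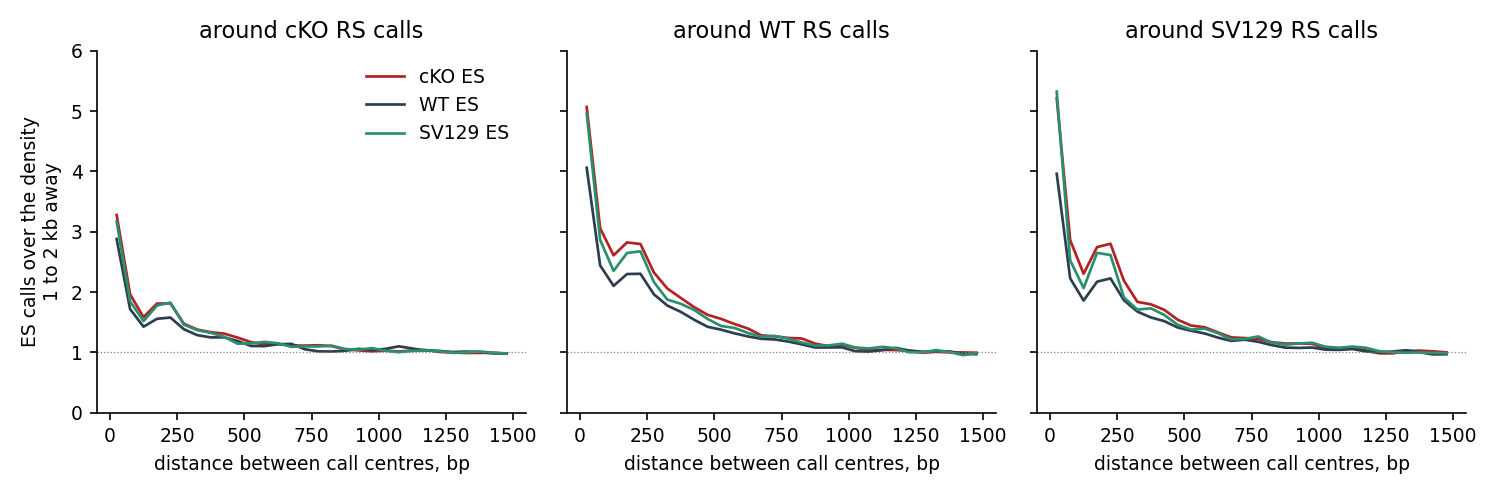
Density of ES nucleosome call centres by distance to RS call centres in 50 bp bins, relative to the density 1 to 2 kb away, around cKO (left), WT (middle) and SV129 RS calls (right); 1 line per ES list. Each line starts highest at 25 bp, dips near 125 bp and has a shoulder at 175 to 225 bp, and all ES lines are lowest around the cKO RS calls.

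Gene groups of the germ line and of other lineages were described by density over their whole bodies, relative to the mean of each list, where all protein-coding genes stood at 1.26 in cKO, 1.19 in WT and 1.35 in SV129. For single genes, 3336 had at least 20 scaled calls on average. Of these cKO was 1.5-fold higher than WT in 24.7% and lower in 12.5%, with a median log2 ratio of 0.13, and SV129 was higher than WT in 32.3% and lower in 15.3%, with a median of 0.20. Against both other lists, cKO was 1.5-fold above in 3.27% of genes and below in 5.67%. The same shares were 4.98% and 19% for WT and 12.1% and 7.25% for SV129, so by this count too cKO stood apart least often.

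The 22 spermatogonial genes, which maintain or differentiate stem cells before meiosis, had 2.1 times the mean density in cKO, 1.5 in WT and 2.03 in SV129. Of 9 such genes with enough calls, 5 were 1.5-fold higher in cKO than in WT and 1 lower, with a median log2 ratio of 0.71. Among all 3336 genes with enough calls 24.7% were higher and 12.5% lower, with a median of 0.13. Gfra1, a GDNF coreceptor of stem cells, had 94 calls in cKO, 53 in WT and 91 in SV129. Dnmt3a, a de novo DNA methyltransferase, had 63, 37 and 61, and Zbtb16, a stem cell transcription factor, 82, 70 and 80. In each of these genes cKO was near SV129. Developmental transcription factors (86 genes) behaved alike, at 1.98, 1.63 and 1.94 times, with 3 of 5 measured genes higher, none lower and a median of 0.61. Pax7, a muscle and neural crest regulator, had 49, 17 and 46 calls, and Runx1, a regulator of blood formation, 105, 75 and 112. For Runx2, which directs bone formation, the counts were 92, 121 and 81. The 50 housekeeping genes had 1.54, 1.15 and 1.49 times the mean.

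The other groups had no common order. Their counts of higher and lower genes are to be read beside 24.7% higher and 12.5% lower than WT among all 3336 genes with enough calls. The 52 meiotic genes stood at 0.782 in cKO, 1 in WT and 0.79 in SV129, with Mei4, needed for meiotic DNA breaks, at 28, 72 and 30 calls. Of 5 measured meiotic genes 1 was lower than WT and none higher, with a median log2 ratio of -0.41. Long neuronal and adhesion genes (40 genes, 54.8 Mb) stood at 0.7, 0.854 and 0.549. All 40 had enough calls, none was 1.5-fold higher in cKO than in WT and 5 were lower, a share like that of all genes. Their median log2 ratio was -0.30, against -0.66 for SV129 over WT. Lsamp, a neuronal adhesion gene, had 229 calls in the cKO list, 447 in WT and 208 in SV129. Rbfox1, a splicing regulator, had 301, 378 and 210. The 31 SAGA and ATAC subunits, partners of Gcn5, stood at 0.994, 1.25 and 1.31, cKO below both intact lists, and these near each other. Of 5 measured subunits 2 were lower than WT and none higher, with a median log2 ratio of -0.38. Atxn7, of the deubiquitinase module, had 19, 33 and 30 calls, Trrap, the scaffold, 31, 44 and 34, and Supt3, a core subunit, 48, 59 and 38. The 61 spermatid genes stood at 1.05, 1.02 and 1.37, and of 10 measured 4 were higher than WT and 1 lower, with a median log2 ratio of 0.14. Dnah8, an axonemal dynein, had 36, 57 and 169 calls in the same order, and Dnah17 had 68, 47 and 61. The 40 chromatin regulators of spermiogenesis stood at 1.19, 1.2 and 1.49. Of 11 measured 4 were higher than WT and 2 lower, with a median log2 ratio of 0.52. Ep400, a remodeller and partner of acetyltransferases, had 45, 27 and 31 calls and Camk4, a kinase of spermiogenesis, 25, 56 and 41. Receptor genes of smell and pheromone sensing (1465) stood at 0.655, 0.778 and 0.631.

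The genes that replace histones held few calls. Prm1 had 1, 0 and 0 calls in its body in cKO, WT and SV129, Prm2 0, 0 and 1, Tnp1 2, 0 and 0, and Tnp2 1, 0 and 0. With 5 kb on either side the counts were 3, 2 and 16 for Prm1, 4, 4 and 11 for Prm2, 7, 9 and 10 for Tnp2, and 2, 2 and 6 for Tnp1. The 500 bp around the start held a call in 4 of these 5 genes (with Prm3) in cKO, 1 in WT and 3 in SV129. Of 9 defining genes of spermatids with a strand, which include these genes except Prm3, 7 starts were occupied in cKO, 2 in WT and 5 in SV129. Numbers this small cannot tell the lists apart. Of the 16 testis histone and linker histone genes with a position, the whole list held 16, 17 and 16 calls, and H3f3a, one of the genes for the replacement histone H3.3, 0, 9 and 4.

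Since fractions may hold other cells, their marker genes were read the same way. Densities in cKO, WT and SV129 were 1.65, 1.17 and 1.44 over 12 Sertoli cell genes, 2.21, 1.55 and 2.3 over 10 Leydig cell genes, 1.63, 1.47 and 1.7 over 9 peritubular and endothelial genes and 1.59, 1 and 1.48 over 13 blood and immune genes. Over 10 pachytene genes they were 0.479, 0.747 and 0.4. Over 12 defining genes of spermatids, the cells of the fraction itself, they were 1.52, 1.39 and 2.41, from only 17, 17 and 24 calls. Csf1r, the receptor of macrophages, had 23, 4 and 19 calls in this order, and Ptprc, the pan-leukocyte marker, 19, 26 and 11. The somatic lists thus moved with the spermatogonial and developmental lists, and in them SV129 moved with cKO. In the spermatid genes it did not, and cKO was nearer to WT. The part of other cells in these densities was not tested.

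By the ratio to the nearer intact list, the 10 highest genes held 34 to 53 calls in cKO, 12 to 28 in WT and 12 to 22 in SV129. Tm4sf1, a tetraspanin-like membrane protein of endothelium, had 35 calls in cKO (exact Poisson 95% interval 24.4 to 48.7), 14 in WT (7.65 to 23.5) and 13 in SV129 (6.92 to 22.2). Lrrc6, needed to assemble dynein arms of cilia and sperm tails, had 43, 20 and 12. Mtus1, a microtubule-binding protein, had 53, 19 and 22, and Gas2, which links actin and microtubules, 46, 23 and 13. The others were Sestd1, Ppp2r3a, Urb1, Kcnk12, Tmem201 and Zfp800.

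At the other side stood the genes with the lowest ratio of cKO to the nearer intact list. Catsperb encodes an auxiliary subunit of the CatSper calcium channel of the sperm tail, and over its 221 kb it had 6 calls in cKO (2.2 to 13.1), 32 in WT (21.9 to 45.2) and 27 in SV129 (17.8 to 39.3). In round spermatids it had 13 calls in cKO, 0 in WT and 4 in SV129. Wdr59, of the GATOR complex that signals amino acid supply, had 7, 32 and 29 ES calls. Znrf1, a ubiquitin ligase, lies 14.4 kb from Wdr59 on chromosome 8 and had 8, 32 and 23. Pcx, pyruvate carboxylase, had 14, 50 and 50 calls, Pbx3, a homeodomain cofactor, 7, 29 and 25, and Lpar3, a lysophosphatidic acid receptor, 7, 30 and 27. The last 4, Gm42346, Gm2808, Zfp981 and Gm15319, are predicted genes and a zinc finger gene with near copies, where counts of reads are uncertain. Gm42346 had 0, 8 and 48 calls and Gm2808 1, 7 and 54. All 20 genes were picked from 3336 by these very counts, and calls within a gene overlap, so the intervals are no test.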

How the data were processed

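For each of 12 groups the files hold nucleosome calls and subnucleosome peaks from ATAC-seq, 24 lists in all. The submitters' processing notes name STAR 2.5.2a, MACS2 2.1.0.20140616 and the build GRCm38 (mm10), without saying what each did. The sources used here do not say how fragments were classed, calls made or libraries combined. The score column the authors deposited has no stated meaning and was used only to leave out calls at a list's most common score, or to keep the peaks at or above the median score. Depth is unknown, and the number of calls per list sets the precision.

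Call centres were counted on chromosomes 1 to 19, X and Y in bins, genes and windows of 500 bp around RefSeq gene ends (GRCm38.p6). The highest coordinate seen on a chromosome stood for its length. Reach is the share of sequence in which a 150 bp call would overlap the other list by 1 bp or more. Genes named are those with the highest and lowest cKO ratio to the nearer intact list (10 each), every gene with an ES peak at an end by list, the 3 with most ES calls in each gene list, some of them given here, and Kat2a, protamine and transition protein genes. Members, lists and rules were chosen with earlier results of these data known. With 1 list per group no test was made and no replicate could be left out. Interval functions were tested on simulated data. Python 3.11.15, numpy 2.4.6, pandas 2.3.3 and scipy 1.17.1 were used.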

Additional observations from a re-analysis of the deposited data

How the results depend on the processing

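No paired analysis was possible because each group has 1 deposited list and no result comes from a test. Each list has no value per library, so none could be left out. Merging overlapping calls changed the cKO to WT list length ratio from 0.915 to 0.895, leaving out calls at the most common score to 0.754, and keeping autosomes only to 0.919. The fold at gene ends in cKO, 2.21, became 2.39 with 250 bp windows, 1.95 with 1000 bp windows and 2.78 without the most common score, and WT stayed below it in each (1.92, 1.62 and 2.02). SV129, at 2.3, gave 2.34, 2.13 and 2.55, below cKO in the first and the last. The correlation of cKO with WT in 100 kb bins, 0.61 with X and Y, was 0.71 for merged calls, 0.88 in 1 Mb bins, 0.64 without the most common score and 0.55 on autosomes. The share of 1 Mb bins past 1.5-fold, 12.4%, was 2.19% at 2-fold. The overlap of cKO ES with cKO RS, 3.39 times over reach, was 4.34 for overlaps of at least 75 bp, 6.87 without the most common score and 2.93 without gene ends. In the same settings WT gave 3.8, 3.62 and 2.35 and SV129 7.23, 7.06 and 4.51. The share of cKO peaks found in WT, 83.3%, was 89.5% among peaks at or above the median score of each list and 79.3% when a WT peak had to cover at least 50% of the cKO peak. With only the cKO peaks held to the median score it was 96.2%. Settings added after seeing the data concerned ES against RS in 1 Mb bins: without gene ends 0.81 in cKO, -0.34 in WT and 0.27 in SV129, without the most common score 0.77, -0.19 and 0.46, and for merged calls 0.86, -0.32 and 0.38. Of the 20 genes named by ratio 18 were still 1.5-fold from both intact lists for merged calls, while none had 40 scaled calls on average, so they rest on low counts. The cause of these changes was not tested.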
